A study of Homo sapiens with 21 samples.

Results

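The genes described here are 35 genes of the endoplasmic reticulum (ER) unfolded protein response, taken by symbol from a fixed list of ER chaperones, disulfide isomerases, stress sensors and ER-associated degradation factors. All 35 matched 1 row each of a table of 54042 Ensembl genes. Counts were present for 34 of them, and those 34 were among the 11610 genes with enough counts to be tested. WFS1, an ER membrane protein, had 0 counts in all 21 libraries, which allows up to 3 counts in each, or 0.494 to 0.783 CPM (counts scaled to the library's total).

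The libraries came from MV4-11, a human biphenotypic B-lymphoid and myelomonocytic leukaemia line, in 7 groups of 3. In wild type, 1 group had the solvent DMSO, 1 had 6 h of ironomycin (also called AM5) and 1 had 24 h of it. Cells with a knockout of HK2 (hexokinase 2) and cells with a knockout of PGP (phosphoglycolate phosphatase) had DMSO or 24 h of ironomycin. The duration of DMSO is not labelled, no knockout group had 6 h, and the knockout clones are not described. Whether replicates were separate cultures is not labelled either, so the p-values rest on a spread that may be technical. Ironomycin is a salinomycin derivative studied for its effect on cellular iron, and the series title concerns mitochondrial iron and cell death.

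The ER folds secreted and membrane proteins with the help of chaperones such as HSPA5 (BiP) and of disulfide isomerases. When unfolded proteins accumulate, the sensors IRE1 (encoded by ERN1), ATF6 and PERK (encoded by EIF2AK3) signal to the nucleus. IRE1 splices XBP1 messenger RNA and ATF6 is cut to release a transcription factor, and both factors raise chaperone and degradation genes, while PERK phosphorylates eIF2 alpha and favours translation of ATF4. Proteins that fail to fold are passed to the HRD1 complex (SYVN1 and SEL1L) and degraded in the cytosol.

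The ER stress element is the best known promoter sequence of this pathway, so promoter windows were read for the members. RefSeq (GRCh38.p14; the counts were made on hg19, so these positions belong to the reference only) held windows from 250 bases before to 50 after the start for 32 of the 35. The ER stress element (CCAAT, any 9 bases, CCACG), searched on both strands, was found for 7 of 32 members (21.9%) and for 25 of 27305 genes with a window (0.0916%). ERSE-II (ATTGG, any 1 base, CCACG) was found for 3 members (9.38%; HYOU1, SDF2L1 and HERPUD1) and for 19 genes (0.0696%). No member holds both elements, so 10 of 32 hold one of them (31.2%), beside 0.161% of all genes. The letters TGACGTGG, bound by XBP1 and ATF6, were found for 1 member, HYOU1 (3.12%), where it overlaps an ERSE-II match, and for 0.927% of all genes, and the C/EBP-ATF letters TGATGNAA for 2 members (6.25%) and 4.46% of all genes. CCAAT alone, which lies within the ER stress element and was searched after the other motifs, was found for 28 members (87.5%) and for 39.7% of all genes. A match is a description of letters and no evidence of binding. The ER stress elements were chosen because they are known from this pathway, so their share among the members is no independent result.

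The 250 bases before the start are shown for 5 members that changed at 6 h and hold one of these elements, and for MANF, which fell most in fold and holds neither. Capitals mark a full match to the ER stress element or ERSE-II on either strand, and each line runs 5′ to 3′ on the gene's strand. Positions on GRCh38.p14 are chr9:125241344-125241593 (minus strand) for HSPA5, chr12:103930160-103930409 (plus) for HSP90B1, chr22:49918384-49918633 (plus) for CRELD2, chr22:21642052-21642301 (plus) for SDF2L1, chr22:28800570-28800819 (minus) for XBP1 and chr3:51385041-51385290 (plus) for MANF.
HSPA5: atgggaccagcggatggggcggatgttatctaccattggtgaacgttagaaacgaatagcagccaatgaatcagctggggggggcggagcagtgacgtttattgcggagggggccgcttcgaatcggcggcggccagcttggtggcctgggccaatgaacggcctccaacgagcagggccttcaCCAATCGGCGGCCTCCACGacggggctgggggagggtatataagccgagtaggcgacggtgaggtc
HSP90B1: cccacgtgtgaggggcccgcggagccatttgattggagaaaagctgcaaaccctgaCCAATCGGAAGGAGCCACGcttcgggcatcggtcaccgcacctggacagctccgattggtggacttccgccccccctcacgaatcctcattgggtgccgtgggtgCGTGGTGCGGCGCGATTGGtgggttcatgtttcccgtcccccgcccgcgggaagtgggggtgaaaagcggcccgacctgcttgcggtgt
CRELD2: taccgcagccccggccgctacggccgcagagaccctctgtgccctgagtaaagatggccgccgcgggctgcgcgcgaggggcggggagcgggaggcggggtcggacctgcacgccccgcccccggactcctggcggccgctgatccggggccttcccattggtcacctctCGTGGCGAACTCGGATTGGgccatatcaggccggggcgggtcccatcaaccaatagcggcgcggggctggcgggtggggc
SDF2L1: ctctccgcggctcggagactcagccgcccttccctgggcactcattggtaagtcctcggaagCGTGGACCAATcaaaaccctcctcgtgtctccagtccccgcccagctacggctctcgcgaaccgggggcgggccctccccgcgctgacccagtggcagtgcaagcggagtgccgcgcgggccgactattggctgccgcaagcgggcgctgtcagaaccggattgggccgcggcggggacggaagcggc
XBP1: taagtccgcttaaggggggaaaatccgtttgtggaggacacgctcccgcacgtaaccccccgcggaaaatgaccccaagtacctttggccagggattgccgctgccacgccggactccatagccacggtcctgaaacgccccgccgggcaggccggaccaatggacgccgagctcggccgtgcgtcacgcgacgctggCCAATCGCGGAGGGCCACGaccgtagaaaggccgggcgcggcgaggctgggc
MANF: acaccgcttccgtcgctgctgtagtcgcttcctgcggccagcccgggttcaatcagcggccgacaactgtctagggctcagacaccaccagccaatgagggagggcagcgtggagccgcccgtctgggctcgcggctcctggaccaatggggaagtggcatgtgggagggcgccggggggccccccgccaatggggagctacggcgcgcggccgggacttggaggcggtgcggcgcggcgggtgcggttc
HSP90B1 holds 2 matches of the ER stress element, and HSPA5, CRELD2 and XBP1 hold 1 each. SDF2L1 holds 1 match of ERSE-II. Of the 9 members that fell at 6 h, 3 hold the ER stress element and 1 holds ERSE-II, and of the 20 members with a window that were not called, 3 and 2 do.

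Total counts per library lay between 3829274 and 6069264 (median 4823817). Levels are CPM over the tested genes with TMM scaling, as mean ± SD of 3 libraries, and differences are log2 fold changes ± SE. Calls are from edgeR's quasi-likelihood test, at 0.05 after Benjamini-Hochberg adjustment over the 11610 genes. HK2 stood at 52.6 ± 14.7 CPM in wild type DMSO and 22 ± 2.49 in its knockout, and PGP at 90.6 ± 4.49 and 75.4 ± 7.10 in its knockout, and 3′ tags need not report an edit. The myelomonocytic markers summed to 317 to 586 CPM and the KMT2A-type leukaemia markers to 261 to 376 CPM over libraries. Most of the myelomonocytic counts came from FLT3 (30884 in all libraries together) and CD33 (8824). ITGAM had 245 counts in all libraries together, LYZ 71, CD14 9 and CEBPA 1. Markers of T, erythroid, epithelial and stromal cells summed to at most 7.67 CPM, with EPCAM and KRT18 at 0 counts. B-lymphoid markers summed to 26.9 to 55.5 CPM in wild type DMSO and 7 to 13.1 at 24 h, with IGLL1 the main source of their counts. Of the 2 tested, IGLL1 was lower at 24 h (-3.61) and PAX5 higher (1.99), so the list had no common direction, and its part in the results below was not tested. In such bulk libraries, fewer cells of a kind and less RNA per cell cannot be told apart. Wild type 6 h replicate 2 stood apart: the SD of its log2 deviation from its group over all genes was 0.675, against 0.332 to 0.480 in the others. In it 20 members were lower and 13 higher than in the mean of the other 6 h libraries, so results at 6 h are given with and without it.

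After 6 h of ironomycin, 9 of 34 members fell (26.5%, against 11.1% of all genes called lower) and 2 rose (5.88%, against 10.9% called higher), so 32.4% were called against 22% of all genes. The falls lay mostly among ER chaperones and co-chaperones, of which 7 of 12 tested fell and none rose, with a median of -0.50. Of the disulfide isomerases 1 of 4 fell, of the degradation factors 1 of 13, and of the sensors and transcription factors 2 of 5 rose. Over all members the median was -0.13, beside 0.02 over all genes. Without replicate 2 of the 6 h group, 7 members fell and 1 rose, the same 7 chaperones among the falls, and the median was -0.08. In that fit 9.41% of all genes were called lower and 8.77% higher. Without DMSO replicate 2 the test called 6 of 34 members in all, a share near the 17.1% of all genes. Without DMSO replicate 3 it called 7, beside 15% of all genes. The lists were chosen with earlier results known, so these counts are a description.

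MANF, a secreted factor that acts in the ER as a HSPA5 cofactor, had the largest called fall among the members. Its level was 148, 188 and 211 CPM in DMSO and 66.6, 28.6 and 82.3 at 6 h. The highest 6 h library lay below the lowest DMSO library. The level was 3.08-fold lower (-1.62 ± 0.23, edgeR adjusted p = 3.4e-05), and without replicate 2 the difference was -1.30 (edgeR adjusted p = 9.3e-06).

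SDF2L1, a cofactor of ER J-domain proteins, stood at 129, 128 and 100.0 CPM in DMSO and 47.4, 68.3 and 32.2 at 6 h. The groups did not overlap, and the level was 2.42-fold lower (-1.27 ± 0.24, edgeR adjusted p = 5.5e-04). CRELD2, an ER protein induced by ER stress, stood at 63.9, 58.9 and 66.3 CPM in DMSO and at 36.3, 36 and 31.3 at 6 h, again with no overlap. Its level was 1.83-fold lower (-0.87 ± 0.15, edgeR adjusted p = 2.3e-04), and its 6 h libraries were close to each other.

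HSPA5 and HSP90B1 fell less in fold. HSPA5, the ER HSP70, had 1239, 1360.1 and 1203 CPM in DMSO and 795, 1145 and 811 at 6 h. The 6 h libraries were all below the DMSO libraries, with replicate 2 nearest to them. The difference was -0.47 ± 0.17 (edgeR adjusted p = 0.0495), and it was larger without replicate 2 (-0.66, edgeR adjusted p = 0.00725). The call was lost without any 1 DMSO library and without 6 h replicate 1 or 3, and over the 11 alternatives the edgeR adjusted p lay between 0.00195 and 0.174. HSP90B1, the ER HSP90, had 949.9, 972 and 964 CPM in DMSO and 736, 435 and 648 at 6 h. DMSO libraries were tight and every 6 h library was lower (-0.67 ± 0.18, edgeR adjusted p = 0.0092).

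DNAJB11 and DNAJC3 are J-domain co-chaperones of HSPA5, and DNAJC3 also inhibits PERK. DNAJB11 stood at 162, 173 and 175 CPM in DMSO and 131, 107 and 116 at 6 h (-0.52 ± 0.10, edgeR adjusted p = 6.4e-04). DNAJC3 stood at 147, 150.1 and 135 CPM in DMSO and 117, 75.1 and 101 at 6 h (-0.55 ± 0.14, edgeR adjusted p = 0.0055). Neither gene's groups overlapped. CALR, a lectin chaperone, had 195, 202 and 162 CPM and 145, 136 and 127, with no overlap either, but was not called (-0.45 ± 0.19, edgeR adjusted p = 0.0884).

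Other chaperones were not called at 6 h. HYOU1, an HSP70-type chaperone, was at 13.4 ± 3.76 CPM in DMSO and 13.2 ± 4.95 at 6 h. CANX, the membrane lectin chaperone, was at 811 ± 25.1 and 892 ± 131 CPM. DNAJB9, which restrains IRE1, was at 12.6 ± 4.10 and 10.3 ± 6.09 CPM, and CRELD1 at 5.29 ± 2.09 and 7.41 ± 2.24 CPM.

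Of the disulfide isomerases, PDIA4 stood at 71.2, 75.1 and 99.9 CPM in DMSO and 62.1, 26.2 and 56.6 at 6 h. Replicate 2 was by far the lowest. The difference was -0.76 ± 0.26 (edgeR adjusted p = 0.0379) and the call was lost without that library (-0.47, edgeR adjusted p = 0.169) and without DMSO replicate 2 or 3, where it was at most that. P4HB was also lowest in replicate 2, at 42.6 CPM against 152 and 165 in the other 6 h libraries, and was not called (-0.50 ± 0.29). PDIA6 and PDIA3 differed by -0.07 and 0.03 and were not called.

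Among the degradation factors EDEM3, which trims mannose from misfolded glycoproteins, had 79.8, 82.2 and 85.3 CPM in DMSO and 61.9, 33.2 and 72.4 at 6 h. All 6 h libraries were lower, replicate 2 most. The difference was -0.56 ± 0.18 (edgeR adjusted p = 0.0284), and it was not called without replicate 2 (-0.30, edgeR adjusted p = 0.127) or without DMSO replicate 2 or 3 (at most 0.177 over the alternatives). The 12 other tested degradation factors lay between -0.72 (SVIP, an inhibitor of degradation) and 0.68 (OS9, a lectin that recognises glycans) and none was called.

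The rising members were transcription factors. XBP1 had 273, 246 and 271 CPM in DMSO and 394, 267 and 468 at 6 h, so the groups overlapped through replicate 2. The difference was 0.51 ± 0.14 (edgeR adjusted p = 0.0125) and 0.71 without replicate 2 (edgeR adjusted p = 1.1e-04). The call was lost without 6 h replicate 3 and without DMSO replicate 2, with an edgeR adjusted p of at most 0.109 over the alternatives. Counts per gene do not show whether XBP1 was spliced. CREB3L2, an ATF6-like factor, had 49.5, 52 and 50.3 CPM in DMSO and 63.2, 71.4 and 70.3 at 6 h, with no overlap (0.43 ± 0.14, edgeR adjusted p = 0.0285), and was not called without replicate 2 (0.40, edgeR adjusted p = 0.0673), without 6 h replicate 3 or without any 1 DMSO library (at most 0.0863). ATF6, ATF6B and ERN1 were at 43.3 ± 1.63, 9.15 ± 1.56 and 3.10 ± 0.708 CPM in DMSO and differed by 0.22, 0.51 and -0.02 at 6 h, none of them called.

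**Figure D1:**
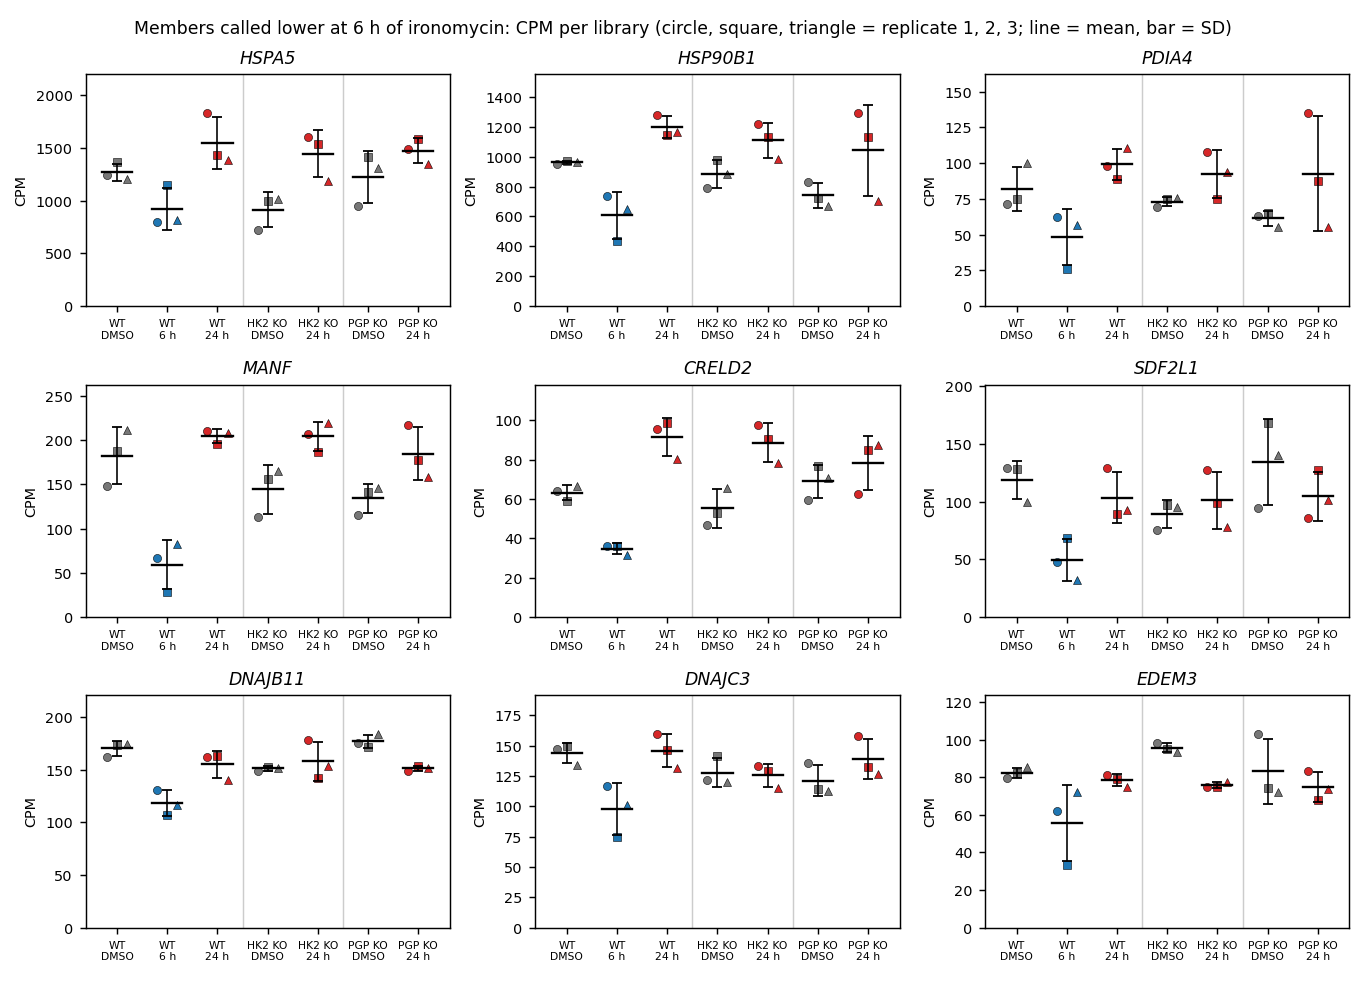
CPM in each library (vertical axis, from 0) for the 9 members called lower at 6 h, across the 7 groups (horizontal axis); circles, squares and triangles are replicates 1, 2 and 3, lines are means and bars SD. For MANF the 6 h libraries sit between 28.6 and 82.3, below the DMSO libraries at 148 to 211, and the wild type 24 h libraries lie at 196 to 211.

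At 24 h the pattern had turned. Against DMSO, 9 members were higher (26.5%, against 15.3% of all genes called higher) and 1 was lower (2.94%, against 14.6%), in all 29.4% called beside 29.8% of all genes. The median was 0.32, beside 0.03 over all genes. The comparisons at 6 h and 24 h share the DMSO libraries. Of the 9 members that fell at 6 h, CRELD2 alone was called at 24 h, and it was higher. The test called 4 of 34 members without DMSO replicate 1 and 4 without DMSO replicate 2, beside 23.9% and 24.1% of all genes. It called 6 without 24 h replicate 2 and 5 without 24 h replicate 3, beside 24.5% and 23.6%. In each of these fits the share of members called lay below that of all genes. By role, 5 degradation factors rose and 1 fell of 13, 2 of 12 chaperones rose, 2 of 5 sensors rose and no disulfide isomerase was called.

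XBP1 was the called riser with the smallest adjusted p. It stood at 424, 504 and 463 CPM at 24 h, all above the 246 to 273 of DMSO (0.82 ± 0.14, edgeR adjusted p = 1.5e-04). SEL1L, the adaptor of the HRD1 complex, had 69.5, 73.3 and 70.8 CPM in DMSO, 88.2, 88.2 and 78.9 at 6 h and 103, 98.0 and 98.6 at 24 h. Its 3 groups lay in separate ranges in that order (0.49 ± 0.10 at 24 h, edgeR adjusted p = 9.4e-04; 0.26 ± 0.10 at 6 h, edgeR adjusted p = 0.0804, not called).

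CRELD2 reached 95.5, 98.4 and 80.5 CPM at 24 h, above its DMSO libraries (0.54 ± 0.14, edgeR adjusted p = 0.0065). CRELD1, a CRELD2 relative, had 3.13, 5.43 and 7.30 CPM in DMSO and 10.5, 8.73 and 7.97 at 24 h (0.75 ± 0.28, edgeR adjusted p = 0.0448), a call lost without DMSO replicate 1 or 2 and without any 1 of the 24 h libraries (at most 0.238). The groups of CRELD1 did not overlap, but the lowest 24 h library was close to the highest DMSO library.

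EDEM1 and EDEM2, which trim mannose like EDEM3, rose. EDEM1 had 15.2, 13.4 and 20.7 CPM in DMSO and 30.6, 23.4 and 34.8 at 24 h (0.84 ± 0.25, edgeR adjusted p = 0.0151). EDEM2 had 7.52, 6.68 and 6.30 CPM and then 10.3, 13.3 and 12.1 (0.80 ± 0.29, edgeR adjusted p = 0.0431). Neither gene's groups overlapped. The EDEM1 call was lost without DMSO replicate 1 or 2 or 24 h replicate 3 (at most 0.0882), and the EDEM2 call without any 1 DMSO library or 24 h replicate 2 or 3 (at most 0.135).

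DERL3, a Derlin of the degradation machinery, had 5.85, 7.10 and 8.46 CPM in DMSO and 12.3, 12.7 and 10.9 at 24 h (0.73 ± 0.23, edgeR adjusted p = 0.0178). SELENOS, a selenoprotein of the HRD1 complex, had 68.7, 62.8 and 76.0 CPM and then 89.2, 89.5 and 91.0 (0.38 ± 0.14, edgeR adjusted p = 0.0448). Both sets of libraries were apart. Each call was lost without DMSO replicate 1 or 2 and without 24 h replicate 1 or 2, and that of SELENOS also without 24 h replicate 3 (at most 0.094 and 0.189). CREB3L2 had 78.3, 52 and 67.3 CPM at 24 h, so that its lowest library met the highest of DMSO, 52 (0.38 ± 0.14, edgeR adjusted p = 0.0427), and the call was lost without any 1 DMSO library and without 24 h replicate 1 or 3 (at most 0.297).

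SVIP, which binds VCP and inhibits degradation, was the exception in direction. It had 6.06, 15.4 and 6.47 CPM in DMSO, 5.55, 5.24 and 6.00 at 6 h and 2.05, 1.39 and 2.33 at 24 h. One DMSO library was far above the rest, and the 24 h libraries were the lowest of all wild type libraries. The difference at 24 h was -2.25 ± 0.40 (edgeR adjusted p = 1.5e-04), with a range of -2.49 to -1.71 over the alternatives and no call lost.

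**Figure D2:**
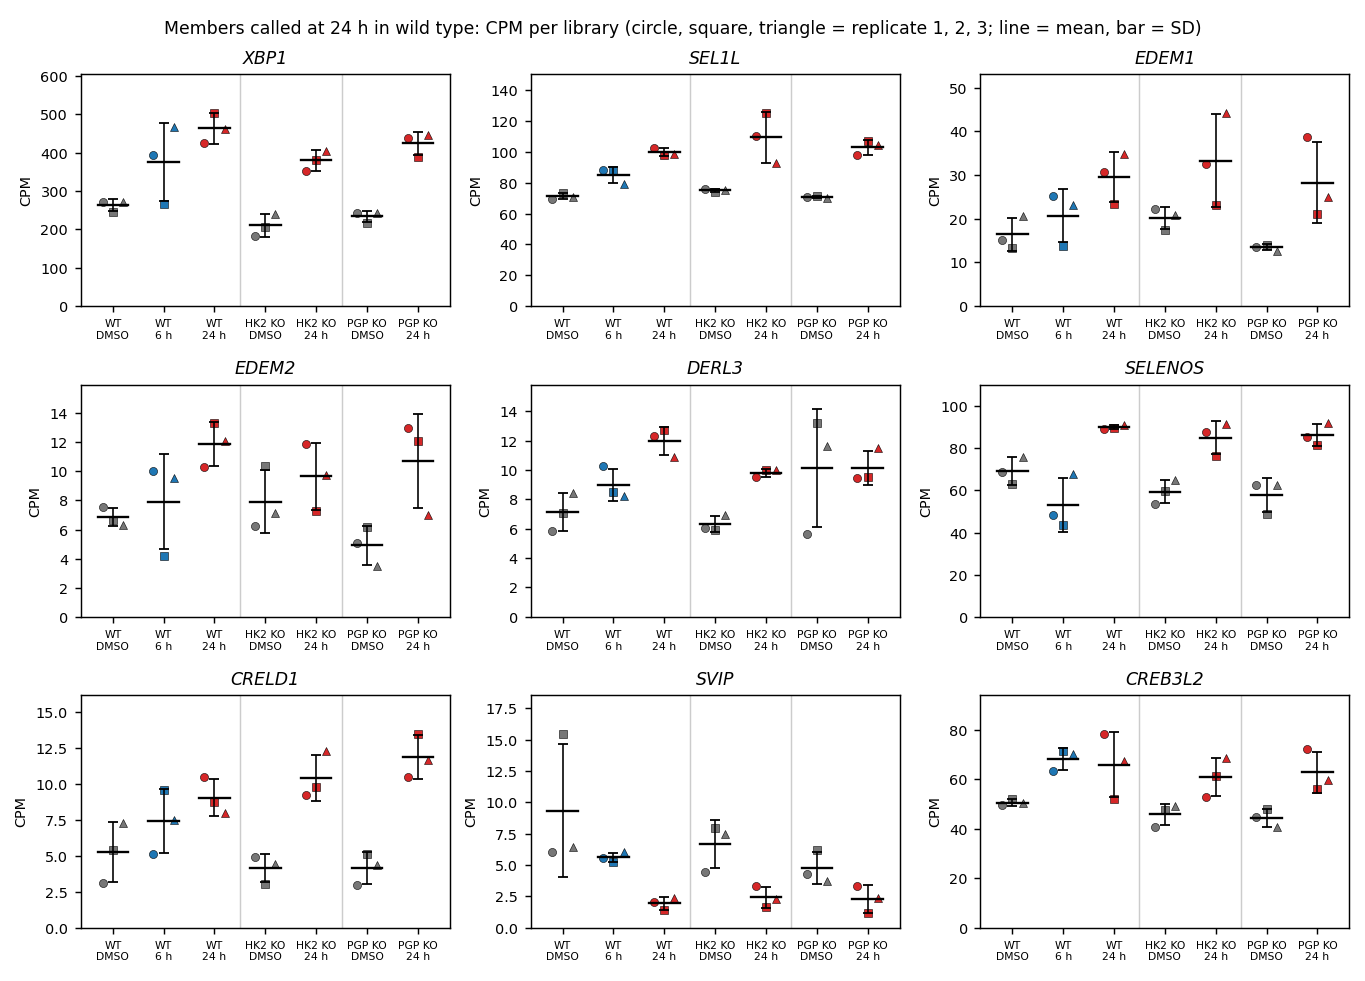
CPM in each library (vertical axis, from 0) for 9 of the 10 members called at 24 h in wild type cells (CRELD2 is among the falls at 6 h), across the 7 groups; symbols and bars as in the plot of the falls. SEL1L libraries at 24 h lie at 98.0 to 103 against 69.5 to 73.3 in DMSO, while SVIP lies lower at 24 h.

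Set directly against 6 h, 13 members were higher at 24 h (38.2%, against 8.48% of all genes called higher) and 1 lower (2.94%, against 8.08%), in all 41.2% called beside 16.6% of all genes. This comparison shares its 6 h libraries with the 6 h comparison, so the rises and the falls are not independent, and it has no DMSO library of its own. Without 6 h replicate 2 it held 10 higher and 1 lower, beside 7.09% and 6.48% of all genes. Of the chaperones 9 of 12 rose and of the disulfide isomerases 2 of 4, with no sensor called.

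MANF went from 66.6, 28.6 and 82.3 CPM at 6 h to 211, 196 and 209 at 24 h (1.79 ± 0.23, edgeR adjusted p = 1.1e-05), and against DMSO it differed by 0.17 ± 0.22. CRELD2 rose by 1.41 ± 0.15 (edgeR adjusted p = 6.7e-07) and SDF2L1 by 1.07 ± 0.24 (edgeR adjusted p = 0.00351). SDF2L1 at 24 h had 129, 89.1 and 92.3 CPM, near its DMSO libraries. HSP90B1 rose by 0.98 ± 0.18 (edgeR adjusted p = 4.9e-04) and HSPA5 by 0.76 ± 0.17 (edgeR adjusted p = 0.00319), with 1831, 1431 and 1381 CPM of HSPA5 at 24 h, all above DMSO. HSPA5 was not called against DMSO at 24 h (0.29 ± 0.17, edgeR adjusted p = 0.209).

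The other rises from 6 h to 24 h were PDIA4 (1.04), P4HB (1.05), DNAJB9 (1.00), SELENOS (0.75), CALR (0.61), DNAJC3 (0.58), DERL1 (0.53) and DNAJB11 (0.39). PDIA4 and P4HB had their lowest 6 h library in replicate 2. Leaving out 1 library ended the calls of CALR, DNAJB9 and DERL1, for each of them without 6 h replicate 2 among others. SVIP alone fell, at -1.53 ± 0.42 (edgeR adjusted p = 0.0139), and was not called without 24 h replicate 2 (0.0652). Summed over all members, wild type libraries held 5422 to 5612 CPM in DMSO and 4416 to 4658 at 6 h. At 24 h they held 6360 to 7422, and the 3 ranges did not overlap. In DMSO the HK2 knockout held 4371 to 5059 CPM, which overlaps the wild type range at 6 h. The PGP knockout held 4941 to 5123 in DMSO. At 24 h the knockouts held 5840 to 6794.5 (HK2) and 5744 to 6983 (PGP). HSPA5, HSP90B1 and CANX contribute the largest counts to these sums.

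**Figure D3:**
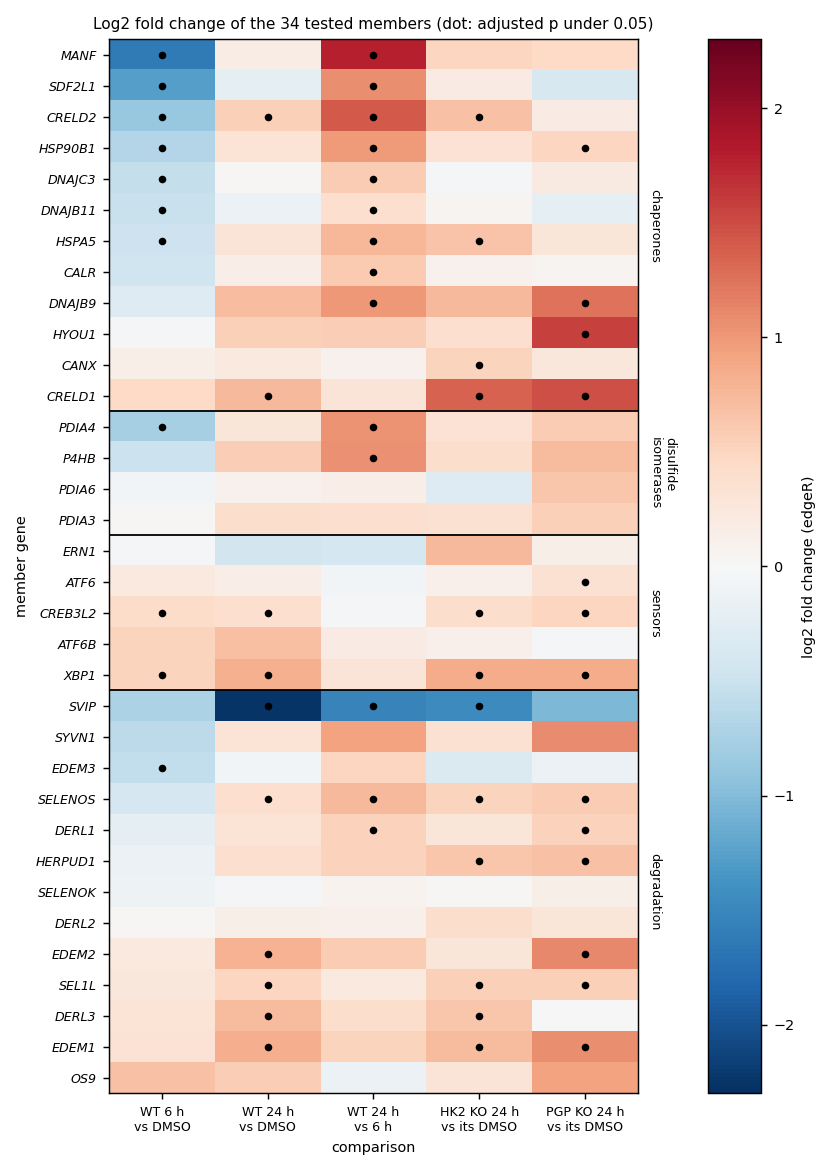
Log2 fold changes (colour) of the 34 tested members (rows, by role) in 5 comparisons (columns), with a dot where the edgeR adjusted p is under 0.05. The first column holds 9 falls and 2 rises, the second 9 rises and 1 fall, and the third 13 rises and 1 fall.

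In the HK2 knockout at 24 h, 11 members were higher (32.4%, against 15.9% of all genes called higher) and 1 was lower (2.94%, against 13.5%), in all 35.3% beside 29.4% of all genes. The median was 0.37, beside 0.03. XBP1 had 183, 207 and 241 CPM in DMSO and 353, 382 and 405 at 24 h (0.85 ± 0.14, edgeR adjusted p = 1.1e-04). The ranges were far apart. SEL1L went from 75.0 ± 1.14 to 109 ± 16.3 CPM (0.54 ± 0.10, edgeR adjusted p = 3.5e-04).

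HSPA5 was called in this knockout, with 721, 999 and 1017 CPM in DMSO and 1606, 1533 and 1187 at 24 h (0.66 ± 0.17, edgeR adjusted p = 0.00478). CANX had 718, 752 and 732 CPM and then 1034, 1151 and 969 (0.52 ± 0.11, edgeR adjusted p = 6.9e-04). Neither gene's groups overlapped. CRELD2 rose by 0.68 ± 0.15, CRELD1 by 1.35 ± 0.29, SELENOS by 0.52 ± 0.14, EDEM1 by 0.72 ± 0.25, CREB3L2 by 0.41 ± 0.14, DERL3 by 0.64 ± 0.24 and HERPUD1, a degradation scaffold, by 0.64 ± 0.24, with overlapping libraries. Of these, the calls of EDEM1, CREB3L2, DERL3 and HERPUD1 were lost on leaving out single libraries, HERPUD1 for example without 24 h replicate 3 and DERL3 without any 1 library of its groups. SVIP fell from 6.65 ± 1.91 to 2.43 ± 0.837 CPM (-1.47 ± 0.40, edgeR adjusted p = 0.00743).

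In the PGP knockout at 24 h, 13 members were higher (38.2%, against 16.1% of all genes called higher) and none was called lower, in all 38.2% beside 31.5% of all genes. The median was 0.50, beside 0.04. Same-numbered libraries deviated together in this comparison. With the replicate number as a block shared by all groups, 19 members rose, beside 18.2% of all genes called higher under the same block. The block added CANX (0.26), PDIA3 (0.52), P4HB (0.73), PDIA6 (0.64), OS9 (0.90) and SYVN1 (1.07). XBP1 had 242, 217 and 243 CPM in DMSO and 437, 388 and 446 at 24 h (0.86 ± 0.14, edgeR adjusted p = 8.5e-05). Every 24 h library was higher.

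CRELD1 went from 4.14 ± 1.10 to 11.9 ± 1.51 CPM (1.49 ± 0.29, edgeR adjusted p = 3.9e-04) and DNAJB9 from 9.39 ± 1.12 to 22.2 ± 5.76 CPM (1.24 ± 0.33, edgeR adjusted p = 0.00592). HYOU1 had 13.6, 8.07 and 3.95 CPM in DMSO and 35.2, 27.9 and 12.1 at 24 h, and its groups overlapped (1.57 ± 0.47, edgeR adjusted p = 0.0134). Within each same-numbered pair HYOU1 was higher at 24 h, and with the block its difference was 1.56 ± 0.27 (edgeR adjusted p = 9.5e-05). EDEM2 rose by 1.11 ± 0.32, EDEM1 by 1.07 ± 0.27, HERPUD1 by 0.67 ± 0.24, SELENOS by 0.58 ± 0.14, SEL1L by 0.54 ± 0.10, DERL1 by 0.53 ± 0.18, CREB3L2 by 0.50 ± 0.14 and HSP90B1 by 0.49 ± 0.18. ATF6 was called at 0.35 ± 0.13 (edgeR adjusted p = 0.0429), a call lost in 9 of 11 alternatives. The HSP90B1 libraries overlapped, and with the block its difference was 0.48 ± 0.16 (edgeR adjusted p = 0.0215). The test called 6 of 34 members without DMSO replicate 3 and 7 without 24 h replicate 1, beside 24.3% and 25% of all genes. In both fits the share of members called lay below that of all genes. HYOU1, EDEM2, HERPUD1, DERL1, CREB3L2 and HSP90B1 were not called in either of these fits, which had no block. SVIP was not called (-1.03 ± 0.42, edgeR adjusted p = 0.0689).

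XBP1, SEL1L, EDEM1, SELENOS, CRELD1 and CREB3L2 were called higher at 24 h in all 3 genotypes, each genotype against its own DMSO libraries. The share of all genes called higher in all 3 is not given here. Only XBP1 and SEL1L kept these calls in every alternative. In wild type the calls of EDEM1, SELENOS, CRELD1 and CREB3L2 were lost in 3, 7, 7 and 6 of 11 alternatives. EDEM1 in the HK2 knockout and CREB3L2 in both knockouts also lost theirs in some. The test of the difference in response called no member for the HK2 knockout or for the PGP knockout, where 0.0% of all genes were called in each. At an unadjusted p under 0.05 the edgeR test had 1 member for each: ERN1 in the HK2 knockout (1.16 ± 0.49) and DERL3 in the PGP knockout (-0.75 ± 0.33). Over all 11610 genes it had 267 for the HK2 knockout and 221 for the PGP knockout. HSPA5 differed in response by 0.37 ± 0.24 in the HK2 knockout and by -0.02 ± 0.24 in the PGP knockout, and CRELD2 by 0.15 ± 0.20 and -0.35 ± 0.20. A response that was called in one genotype and not in another is thus not shown to differ.

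In DMSO, no member was called between a knockout and wild type, where 0.00861% of all genes were called for HK2 and 0.0% for PGP. DESeq2 called 0 members in each. At an unadjusted p under 0.05 the edgeR test had 2 members for HK2, HSPA5 (-0.47 ± 0.17) and XBP1 (-0.32), and 4 for PGP, HSP90B1 (-0.38), HERPUD1 (-0.64), DERL3 (0.52) and SVIP (-0.96). Over all 11610 genes it had 606 for HK2 and 648 for PGP. Of 34 members 25 were below wild type in each knockout, with medians of -0.14 and -0.21. Over all genes 51.9% and 49% were below.

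Other genes, from lists set beside the members, did not all follow them. Their counts are to be read beside the 10.9% of all genes called higher and 11.1% called lower at 6 h, and the 15.3% and 14.6% at 24 h. Of the PERK arm and ATF4 and CHOP targets, 11 of 13 rose at 6 h and none fell (median 1.77), and 12 of 13 rose at 24 h (median 1.62). TRIB3, a pseudokinase induced by CHOP, differed by 3.87 ± 0.24 at 6 h (edgeR adjusted p = 4.3e-10) and SESN2 by 2.83 ± 0.19 (edgeR adjusted p = 5.2e-10). DDIT3, which encodes CHOP, differed by 2.96 ± 0.21 (edgeR adjusted p = 1.6e-09). EIF2AK3 was not called at 6 h (0.59 ± 0.22, edgeR adjusted p = 0.0583) and rose at 24 h (1.02 ± 0.22, edgeR adjusted p = 9.6e-04). Gene counts cannot show whether PERK was active, and which kinase lay behind the rises of ATF4 and CHOP targets was not tested.

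Of 24 translocon, signal peptidase and N-glycan transfer genes, 7 fell at 6 h and none rose (median -0.31), and 3 fell without replicate 2, where 9.41% of all genes were called lower. DAD1, a subunit of the glycan transferase, differed by -0.77 ± 0.11 (edgeR adjusted p = 1.8e-05). At 24 h 3 of them rose and none fell (median 0.08). Of 19 ER oxidation and other folding enzymes, 3 rose and 2 fell at 6 h, and 6 rose at 24 h. Of 15 other degradation factors 1 rose and 2 fell at 6 h, and 4 rose and 4 fell at 24 h. At 6 h the counts of these last lists lie near the shares of all genes. VCP, the ATPase that extracts proteins from the ER, differed by -0.59 ± 0.09 at 6 h (edgeR adjusted p = 9.3e-05).

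Most heat shock genes outside the ER fell at both times. The list holds cytosolic chaperones, the mitochondrial chaperonins HSPD1 and HSPE1 and the transcription factor HSF1. Of 16 tested, 13 fell at 6 h (median -0.94) and 14 at 24 h (median -0.91), and 14 also fell at 24 h in each knockout. DNAJA1 differed by -1.98 ± 0.15 at 6 h (edgeR adjusted p = 3.8e-09) and by -1.29 ± 0.15 at 24 h (edgeR adjusted p = 5.7e-07). Of the 8 tested sensor proteases and related factors, 1 rose at 6 h.

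**Figure D4:**
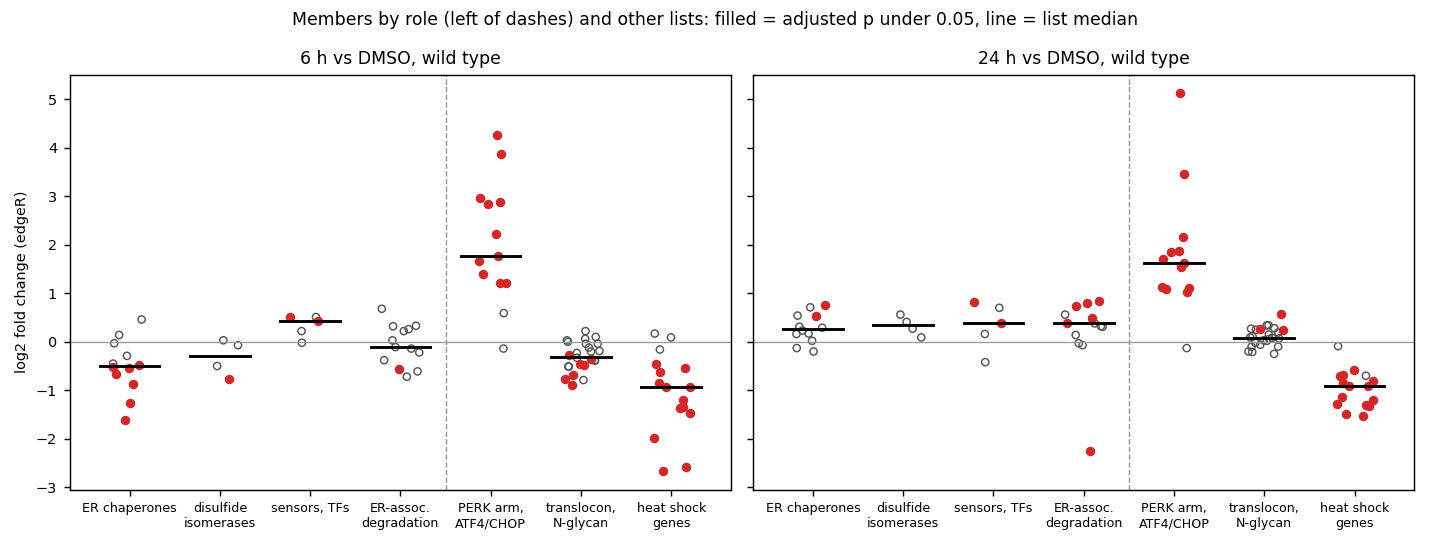
Log2 fold changes (vertical axis) at 6 h and at 24 h against DMSO in wild type cells for the 4 roles of the members, left of the dashed line, and 3 other lists; filled points have an edgeR adjusted p under 0.05 and lines are medians. The chaperone median is -0.50 at 6 h and 0.26 at 24 h, while that of the heat shock genes outside the ER is -0.94 and -0.91.

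Some members share sequence or overlap with other genes. The exons of 18 members overlap another gene in GENCODE 29, and for 11 this lies within the last 600 bases, where 3′ tags fall. There SYVN1 overlaps FAU, ATF6B overlaps TNXB and DNAJB11 overlaps AC068631.2, each on the same strand. Of the members that fell at 6 h, DNAJB11 and HSP90B1 (C12orf73, opposite strand) are among the 11. HYOU1, CALR, P4HB and DERL3, called in other comparisons, have a gene on the opposite strand there. Whether the counting used strand is not given in the sources used here, so such levels are uncertain. The pseudogene HSPA5P1 had 451 counts over all libraries, against 127940 for HSPA5, and PDIA3P1 had 1037 against 27196 for PDIA3.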

How the data were processed

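RNA was extracted with Qiagen RNeasy and the Lexogen QuantSeq 3′ kit gave the libraries, per the labels' protocols. The tools were bcl2fastq 2.20.0.422, HISAT2 on the hg19 build, and HTSeq, per the submitters' processing notes. The deposited values are raw counts per Ensembl gene, not normalized by the authors.

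Counts were tested with edgeR 4.0.16 (R 4.3.3, limma 3.58.1): TMM factors, filterByExpr by group (at least 10 counts and 15 in total), and 1 quasi-likelihood fit of the 21 libraries together, with 14 residual degrees of freedom. CPM use the counts in tested genes times the TMM factor. Taking the whole library instead changes levels slightly and made the CREB3L2 libraries at 24 h and in DMSO overlap. Alternatives were RLE factors, no filter, DESeq2 1.42.0, the replicate block, the compared groups alone and each library left out.

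The members and lists were chosen with earlier results of these data known. Members called in any comparison are described, and those called in wild type at 6 h or 24 h are given by library. Deviations of same-numbered libraries correlated at 0.243, 0.164 and 0.247 in the PGP knockout (24 h and DMSO). The block gave each replicate number 1 effect shared by all 7 groups, so it does not pair the PGP libraries alone. In wild type, each 24 h library also correlated most with the same-numbered DMSO library (0.166, 0.05 and 0.236). The same held in DMSO for each PGP knockout library against the wild type libraries (0.093, 0.084 and 0.095). The reverse direction was not computed. The pipeline was tested on simulated data. Figures used matplotlib 3.10.9, and tables Python 3.11.15 and pandas 2.3.3.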

Additional observations from a re-analysis of the deposited data

How the results depend on the processing

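No called difference changed direction under any alternative run. Uncalled ones did: without 6 h replicate 2, the differences at 6 h were -0.07 for PDIA3, 0.06 for HERPUD1 and 0.09 for DNAJB9, against 0.03, -0.14 and -0.29 with it. Fitting the compared groups on their own, 5 members and 1212 genes were called at 6 h (11 and 2556 in the fit of all libraries), and 8 and 749 at 24 h against 6 h (14 and 1922). At 6 h these members all fell, and HSPA5, PDIA4, DNAJC3, EDEM3, XBP1 and CREB3L2 were no longer called. At 24 h against 6 h, PDIA4, P4HB, DNAJB9, DNAJB11, DNAJC3 and DERL1 were no longer called. With no low-count filter, 20 members and 3492 genes were called in the PGP knockout at 24 h (13 and 3661 with the filter). Against wild type, both in DMSO, that fit called 1 member and 59 genes for the HK2 knockout and 2 and 96 for the PGP knockout. For the difference in response it called 17 genes for the HK2 knockout and 18 for the PGP knockout. In DMSO, the HK2 knockout had 19 genes called with the replicate block, 17 in the compared groups alone and 23 with DESeq2, and the PGP knockout had 2 in the compared groups alone and 5 with DESeq2. The difference in response of the PGP knockout had 1 gene called in the compared groups alone. The cause was not tested.

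Leaving out 1 library at a time gave 6 to 10 members and 1776 to 2594 genes at 6 h, 4 to 9 and 2787 to 3020 at 24 h, 11 to 17 and 1271 to 2220 at 24 h against 6 h, 8 to 11 and 2663 to 2994 in the HK2 knockout at 24 h, and 6 to 13 and 2874 to 3227 in the PGP knockout at 24 h. It gave 0 to 8 genes for the HK2 knockout in DMSO, and 0 members and 0 genes in the other comparisons between genotypes. With the replicate block, 14 members and 3098 genes were called at 6 h, 14 and 3944 at 24 h, 18 and 2514 at 24 h against 6 h, and at 24 h in the knockouts 14 and 3885 for HK2 and 19 and 4081 for PGP. No member's call was lost. Outside the PGP knockout at 24 h, same-numbered libraries did not all correlate above 0.1, although single correlations reached 0.347. Whether the numbers pair libraries is not settled in any comparison. The depth allowed 3 counts to be read as 0.494 to 0.783 CPM, which limits SVIP, ERN1 and CRELD1 most.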

Other observations

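Several members followed the replicate number across groups, a pattern chosen after its values were seen. PDIA3 and PDIA6 were lowest in replicate 3 in 7 of 7 groups, and P4HB was lowest in replicate 2 in 7 of 7. One number was lowest in all 7 groups for 3 of 34 members (8.82%) and for 233 of 11610 genes (2.01%), and in at least 6 groups for 8 members (23.5%) and 1127 genes (9.71%). One number was highest in all 7 groups for 0 members (0.0%) and 136 genes (1.17%). In at least 6 groups this held for 4 members (11.8%) and 948 genes (8.17%). The sample numbers in the column names run in blocks by replicate number across all groups. The labels do not say what the numbers mark, and the source of the pattern was not tested.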
